A study of Mus musculus with 16 samples.

Results

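The heat shock genes described here are 9 chaperone genes of the mouse: Hspa1a, Hspa1b, Hspa5, Hspa8, Hsp90aa1, Hsp90ab1, Hspb1, Hsph1 and Dnajb1. They were taken by symbol from the 55487 genes listed in the deposited count matrix, of which 41193 had a UMI, and they were followed across the deposited cell clusters, the mice and the time points after injury. A UMI (unique molecular identifier) stands for a captured RNA molecule. All 9 genes had UMIs, from 789 for Hspa1b to 42193 for Hsp90ab1.

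The study measured single-cell RNA by 3′ tag sequencing in spinal cord tissue around a C5 dorsal column lesion, to look at what loss of the Wnt receptor Ryk from astrocytes does after injury. The matrix held 18203 cells of 16 mice in 17 clusters. There were 8 groups of 2 mice, from 2 genotypes at 4 times.

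WT mice were Ryk+/+,GFAPcreERT2 and cKO mice were Rykfl/fl,GFAPcreERT2. Each genotype was studied without a lesion (labelled Sham, and non-injured in the titles) and at 3 times after spinal cord injury, which were 1 d, 7 d or 14 d. All groups were 8 to 10 weeks old and carried the Cre transgene. The study's methods start daily tamoxifen before the operation and continue it past that day, while uninjured controls were analysed 14 d after the knockout. Time since tamoxifen therefore differed between uninjured mice and mice at 1 d. The GFAP promoter drives the Cre in astrocytes that express GFAP and in other cells with GFAP promoter activity, so neither genotype is free of Cre. Dissociation used pronase at room temperature with actinomycin D, an inhibitor of transcription, in the digestion and later solutions of every group. The methods list none in the perfusion solution or in the fluid that held the slices before digestion.

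Several libraries stood apart. WT 1 d replicate 2 held 1 cell with 266 UMIs and was left out, so 15 mice remained, and 1 d was represented by 1 WT and 2 cKO mice. The remaining mice held 208 to 1845 cells and 536263 to 9008729 UMIs. Replicate 1 of WT 1 d, cKO 1 d, WT 7 d and cKO 7 d was shallow, with medians of 414, 421, 414 and 548 UMIs per cell, whereas the other 11 mice had medians of 1040.5 to 3637. In 6 mice, all of them replicate 2, the names of the cells gave a condition other than that of the title, while the cell table gave that of the title in all 16 mice. The titles were used, and the other reading was run as an alternative. Of 17937 cell barcodes, 166 (0.925%) occurred in 2 or more mice. WT 14 d replicate 1 had higher levels of several heat shock genes than the other 3 mice at 14 d, as given below.

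The cluster names were checked against marker lists. In each of the 16 clusters with a cell type name, the list with the highest mean excess over the other clusters was the one that fits the name. In the cluster named Unk (Cluster 13) that list was the ependymal one, with UMIs for 6 of 6 genes, and the cluster is called Cluster 13 here. Cluster 7, named Astro, had none of its top 10 genes on any list, although the astrocyte list had its highest mean there among the lists, with UMIs for 8 of 8 genes. The top 10 genes of Cluster 2, named Astro, held Slc1a2, Aldoc and Ndrg2 beside the neuronal genes Nefl, Nefh, Kif5a and Bc1 and the oligodendrocyte gene Mobp. Its levels are therefore not read as those of astrocytes alone. Cluster 10, named Microglial, had the microglia list on top, but the only listed gene among its top 10 was Lyz2, of the immune list. The rest of its top 10 were C1qa, C1qb, C1qc, Ctss, Ctsd, Spp1, Apoe, Tyrobp and Trem2. Of these, C1qa, C1qb, C1qc and Ctss were also in the top 10 of Cluster 6, named Microglial too.

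Ryk itself, counted over the astrocyte Clusters 5 and 7 together, had no order of the genotypes that held at all times. In uninjured mice its level was 126 and 70.1 UMIs per 1e+06 UMIs (CPM) in WT and 68.8 and 116 CPM in cKO. At 1 d it was 103 CPM in the WT mouse and 24.0 (1 UMI) and 79.0 CPM in the cKO mice. At 7 d it was 170 and 131 CPM in WT, above the 94.0 and 126 CPM in cKO, and at 14 d it was 115 and 112 CPM in WT, below the 136 and 135 CPM in cKO. A 3′ tag can come from a transcript that lacks the floxed exons, so these counts check nothing about the deletion.

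Heat shock proteins are chaperones that bind unfolded protein chains and help them fold, refold or reach degradation. HSP70 proteins work in cycles with HSP40 partners such as Dnajb1, which stimulate ATP hydrolysis, and with HSP110 proteins such as Hsph1, which exchange the nucleotide. HSP90 proteins act later on signalling proteins, and small heat shock proteins hold aggregating proteins without using ATP. Hspa1a, Hspa1b, Hspb1, Hsph1 and Dnajb1 are classical targets of the heat shock factor Hsf1, whereas Hspa5 belongs to the unfolded protein response of the endoplasmic reticulum.

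Across 10 clusters and 9 genes, 2 increases passed the test at 1 d against uninjured mice: Hspb1 in the Cluster 7 astrocytes and Hspa5 in the Cluster 10 microglia. Each mouse's UMIs were summed by cluster and fitted with edgeR quasi-likelihood, with Benjamini-Hochberg adjustment over all genes of a cluster at 0.05. These were 2 of 72 tests of heat shock genes, where 0.0412% of the 75264 tests of all genes passed. At an unadjusted p under 0.05 there were 13 of the 72 tests (18.1%), 12 of them with a higher level at 1 d, against 6.62% of the tests of all genes. The comparison of replicate 2 with replicate 1 also had 13 of 72 (18.1%, against 8.29% of all genes), so such a share is not particular to 1 d. The 72 tests share mice and are not independent. DESeq2 called 6 heat shock tests, and 119 of the tests of all genes. The median log2 change over the 72 tests was 0.36, against -0.18 over all genes. Filtering on low counts left Hspa1a in 3 clusters, Hspa1b in 4, Dnajb1 in 6, Hspb1 in 9 and the other genes in 10. Clusters 2 and 12 to 17 had too few mice with 10 cells for a test.

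No heat shock gene passed at the later times or between genotypes in the planned fits. At 7 d edgeR called 0 of 72 tests, against a background of 0.0691%, with 6 tests at an unadjusted p under 0.05 (8.33%, against 7.39% of all genes) and 0 calls by DESeq2. At 14 d it called 0 of 72, against 0.191%, with 9 tests at an unadjusted p under 0.05 (12.5%, against 8.10%) and 0 calls by DESeq2. For cKO against WT after injury it called 0 of 72, against 0.00133%, with 5 tests at an unadjusted p under 0.05 (6.94%, against 3.31%) and 0 calls by DESeq2. The 3 time contrasts share the uninjured mice. These fits had no term for the replicate number, which equals the deposited batch. With it, Hspa8 passed in neurons at 14 d. With a term for the animal number series, Hspa8 passed in neurons and Cluster 7 at 7 d, and Hspa8, Hsp90ab1 and Hspa5 in neurons at 14 d. The backgrounds above belong to the fits without these terms, so these added calls are not set against a share of all genes.

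**Figure D1:**
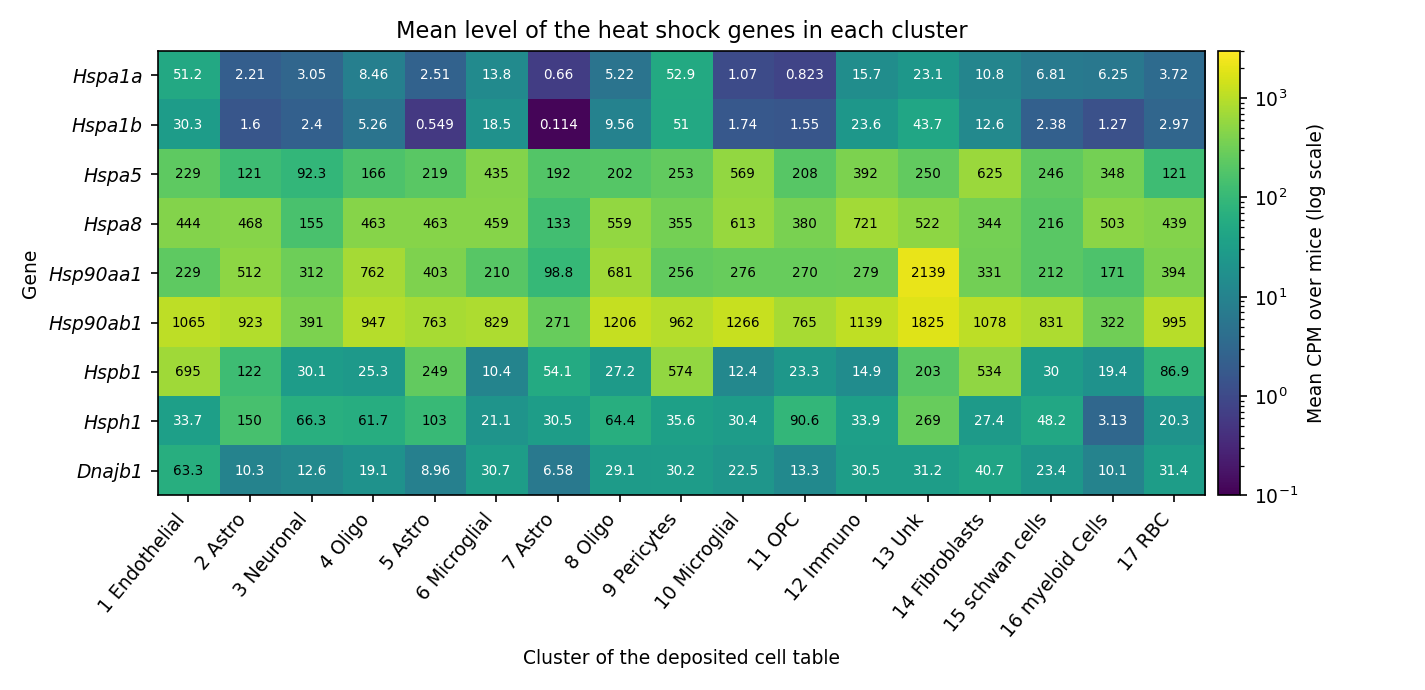
Mean level of each heat shock gene (vertical axis) in each cluster (horizontal axis), in CPM averaged over the mice of all times with at least 10 cells, on a logarithmic colour scale with the mean printed in each cell. Hsp90aa1 is highest in Cluster 13 (2139 CPM), and Hspb1 in endothelial cells (695 CPM), pericytes (574 CPM) and fibroblasts (534 CPM).

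The inducible HSP70 genes, Hspa1a and Hspa1b, were sparse, with 895 UMIs in 476 cells and 789 UMIs in 413 cells. Their transcripts share 63.8% (Hspa1a) and 67.5% (Hspa1b) of their 31-base words, but none of the 470 words of the last 500 bases of either transcript occurs in the other, so 3′ tags from that part can tell the genes apart. Hspa1a was highest in vessel-associated cells, at 52.9 ± 56.0 CPM (SD, n = 15 mice) in pericytes and 51.2 ± 32.9 CPM (n = 15) in endothelial cells. Those neighbours did not differ beyond their spread, since pericytes were the higher in 6 of 15 mice. Cluster 13 followed with 23.1 ± 24.7 CPM (n = 10), immune cells with 15.7 ± 19.2 CPM (n = 10) and the Cluster 6 microglia with 13.8 ± 29.3 CPM (n = 14), where WT uninjured replicate 2 had 113 CPM and the other 13 mice at most 17.1 CPM. In the other clusters the mean was at most 10.8 CPM, down to 0.660 CPM in Cluster 7, where 12 of 15 mice had no UMI.

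Hspa1b had a similar order of clusters, with 51.0 ± 79.4 CPM in pericytes (n = 15), 43.7 ± 37.6 CPM in Cluster 13 (n = 10), 30.3 ± 16.5 CPM in endothelial cells (n = 15) and 23.6 ± 19.1 CPM in immune cells (n = 10). These clusters were not separable, since each was above the next in 3 to 6 of 10 mice. The lowest mean was again in Cluster 7, at 0.114 CPM. A single mouse and very few cells carried the upper end. In pericytes of cKO 1 d replicate 2, 49 UMIs of Hspa1b came from 1 cell and 34 UMIs of Hspa1a from 3 cells, giving 328 and 227 CPM, against at most 66.5 and 92.0 CPM in the other 14 mice.

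In endothelial cells, the cluster with the most UMIs of the pair, the summed level of Hspa1a and Hspa1b was 65.1, 116, 84.5 and 72.9 CPM in the 4 uninjured mice. At 1 d it was 56.9, 59.5 and 227 CPM, the last again in cKO 1 d replicate 2. Of the 336 endothelial cells of that mouse, 10 held its 93 UMIs of Hspa1a and 9 its 49 UMIs of Hspa1b. At 7 d it was 89.3, 76.8, 64.4 and 55.9 CPM and at 14 d 34.1, 44.2, 68.0 and 109 CPM. The time points overlapped. The log2 change at 1 d was -0.17 ± 0.59 (SE) for Hspa1a and 0.40 ± 0.55 for Hspa1b, with adjusted p of 0.998 and 0.972 from edgeR, and 1 of 3 mice at 1 d was above all uninjured mice. Hspa1a alone was lower later without passing, by -1.08 ± 0.48 at 7 d (unadjusted p = 0.0406, adjusted p = 0.550, edgeR) and -1.04 ± 0.45 at 14 d (0.0333 and 0.654). At each of these times 3 of 4 mice were below all uninjured mice.

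Hspa1a and Hspa1b both lie on chromosome 17 (34969190 to 34972156 and 34956436 to 34959238, minus strand, GRCm38), and the stretches before their starts are nearly the same. They are shown because these genes were high in the same mouse and the same vessel-associated clusters. Of the 250 bases upstream of the RefSeq start, 247 are identical and 3 differ, written in capitals, 5′ to 3′ on the minus strand (chr17:34972157-34972406 and chr17:34959239-34959488, GRCm38.p6).
Hspa1a: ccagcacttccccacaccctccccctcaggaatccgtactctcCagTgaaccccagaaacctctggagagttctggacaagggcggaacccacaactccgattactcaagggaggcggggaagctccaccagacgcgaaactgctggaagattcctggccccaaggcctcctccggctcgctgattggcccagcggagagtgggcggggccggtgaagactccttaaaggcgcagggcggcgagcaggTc
Hspa1b: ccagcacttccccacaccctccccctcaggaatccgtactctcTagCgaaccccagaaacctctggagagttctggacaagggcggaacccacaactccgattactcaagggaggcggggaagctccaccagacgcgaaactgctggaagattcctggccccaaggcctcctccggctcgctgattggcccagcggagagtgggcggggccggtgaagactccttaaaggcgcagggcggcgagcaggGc

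Hspa5 encodes the HSP70 protein of the endoplasmic reticulum lumen, also called BiP. Its mean level was highest in fibroblasts (625 ± 349 CPM, n = 9) and the Cluster 10 microglia (569 ± 515 CPM, n = 14), then in the Cluster 6 microglia (435 ± 326 CPM, n = 14), immune cells (392 ± 186 CPM, n = 10) and myeloid cells (348 ± 317 CPM, n = 5). Fibroblasts were above Cluster 10 in 4 of 9 mice and Cluster 10 above Cluster 6 in 10 of 14, so these neighbours did not differ beyond their spread. These means pool times that the clusters fill differently. Of the 5 myeloid mice 3 were at 1 d, with a mean of 528 CPM, and the uninjured mouse and the 7 d mouse had 62.5 and 92.0 CPM. A group of 8 clusters lay close together, from pericytes at 253 ± 98.4 CPM (n = 15) to Cluster 7 at 192 ± 79.8 CPM (n = 15). The lowest means were in the Cluster 4 oligodendrocytes (166 ± 98.9 CPM, n = 15), red blood cells (121 ± 118 CPM, n = 4), Cluster 2 (121 ± 66.2 CPM, n = 11) and neurons (92.3 ± 47.8 CPM, n = 15).

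Hspa5 rose at 1 d in the Cluster 10 microglia. The 3 uninjured mice with enough cells had 428 (WT replicate 1, 11 UMIs), 73.2 (WT replicate 2, 2 UMIs) and 255 CPM (cKO replicate 2, 6 UMIs). At 1 d the level was 1711 CPM (WT, 42 UMIs), 1657 CPM (cKO replicate 1, 53 UMIs) and 1025 CPM (cKO replicate 2, 199 UMIs). At 7 d it was 364, 331, 398 and 350 CPM, and at 14 d 358, 372, 362 and 287 CPM. All 3 mice at 1 d were above every mouse of the other times, and they were above the uninjured mice of their own replicate number in both replicates.

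The log2 change at 1 d was 2.51 ± 0.52 (SE), with an adjusted p of 0.0262 from edgeR, higher in 3 of 3 mice. In Cluster 10 at 1 d 0.147% of 6788 genes passed, and the median log2 change of all genes was 0.40. The call was lost without WT uninjured replicate 2 (2.16, adjusted p = 0.0967), without cKO uninjured replicate 2 (2.57, 0.0558), without the 4 shallow mice (2.49, 0.0817, with 1 mouse left at 1 d) and when conditions were read from cell names (2.65, 0.165). Without WT uninjured replicate 1 it was 3.25 (0.0274).

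Marker lists of other cell types, summed in Cluster 10, are given beside this. The immune list (7 genes, Lyz2 the most abundant except Ptprc in WT uninjured replicate 1) summed to 1323, 2854 and 1443 CPM in uninjured mice and 2852, 2470 and 556 CPM at 1 d. The neutrophil or myeloid list (6 genes) summed to 428, 183 and 170 CPM, with Csf3r the most abundant, and then to 0, 31.3 and 216 CPM. Csf3r was also the most abundant gene of this list in every mouse of the Cluster 6 microglia, at 137 to 564 CPM. The sums of this list are therefore not read as neutrophils, and leaving out cells with its UMIs can leave out microglia. In Cluster 6 of WT uninjured replicate 1, 34 of 79 cells had no UMI of it. In cells without a UMI of the immune list, Hspa5 was 82.8 and 243 CPM in the 2 uninjured mice left and 1590, 1500 and 379 CPM at 1 d. The last of these lay below WT 7 d replicate 1 (840 CPM) and cKO 7 d replicate 1 (654 CPM), and the change did not pass (2.90, adjusted p = 0.255, edgeR). In cells without a UMI of the neutrophil or myeloid list it was 50.4 and 194 CPM and then 1711, 1694 and 764 CPM (3.52, adjusted p = 0.239, edgeR). Both sets of cells were chosen after seeing the data, and 2 uninjured mice are fewer than the 3 required of the other tests.

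Other genes of Cluster 10 changed at 1 d too. Of the 10 genes that passed there, all named here after their values were seen, P2ry12, a gene of resting microglia, fell from 856, 768 and 297 CPM to 40.7, 62.5 and 61.8 CPM. Its log2 change was -3.28 ± 0.68 (adjusted p = 0.0262, edgeR), lower in 3 of 3 mice. Beside Hspa5 and Calr, Spp1 (6.40 ± 0.90, adjusted p = 0.000332), Lpl (6.28 ± 0.98, 0.00139), Ccl2 (6.98 ± 1.40, 0.0202), Fn1, Lgals1, Dab2 and Msr1 rose in edgeR, each with 3 of 3 mice above all uninjured mice. The last 4 were at 0 in all 3 uninjured mice, so their fitted changes of 9.08 to 10.34 are no bound. Lpl was at 0 in 2 of 3 uninjured mice and 764 CPM in the third, next to 824 CPM in the lowest mouse at 1 d. Ccl2 was at 0 in 2 of 3 (183 CPM in the third) and Spp1 in 1 of 3. A change within the same cells and a change in which cells the cluster holds cannot be told apart for Hspa5.

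The Cluster 6 microglia had Hspa5 at 431, 331 and 300 CPM in uninjured mice and 1302, 946 and 680 CPM at 1 d. The mice at 1 d lay above all uninjured mice, but the log2 change of 1.47 ± 0.39 did not pass (adjusted p = 0.170, edgeR). In endothelial cells the level was 285, 145, 284 and 178 CPM in uninjured mice and 387, 278 and 267 CPM at 1 d, which overlap (log2 change 0.39 ± 0.27, adjusted p = 0.922, edgeR). The change in Cluster 10 exceeded that in endothelial cells by 2.20 ± 0.53 on the log2 scale (adjusted p = 0.0307, edgeR with mice as blocks). In this comparison with endothelial cells, chosen after seeing the data, 3 of 81 tests of heat shock genes passed, against 0.0446% of tests of all genes.

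**Figure D2:**
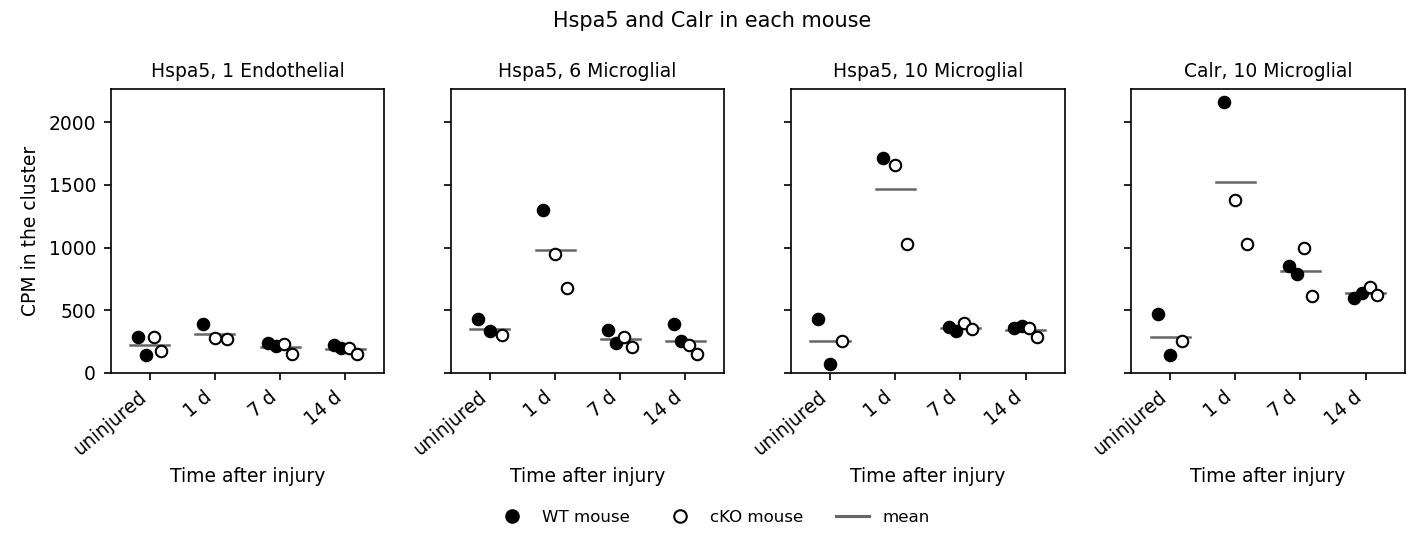
Level in CPM (vertical axis) of Hspa5 in endothelial cells, the Cluster 6 microglia and the Cluster 10 microglia, and of Calr in Cluster 10, in each mouse by time after injury (horizontal axis); filled points are WT mice, open points cKO mice and lines the means. Hspa5 in Cluster 10 lies between 1025 and 1711 CPM at 1 d and between 73.2 and 428 CPM in uninjured mice.

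Other genes of the endoplasmic reticulum were read from a list of 22 stress genes. In Cluster 10 at 1 d, 1 of 20 tested genes passed, against 0.147% of all genes there, with a median log2 change of 1.43 against 0.40 over all genes, and 16 of 20 were above 0. The gene that passed was Calr, the lumenal lectin chaperone calreticulin. It had 467, 146 and 255 CPM in uninjured mice and 2159, 1376 and 1030 CPM at 1 d, a log2 change of 2.47 ± 0.52 (adjusted p = 0.0275, edgeR) with 3 of 3 mice higher. Calr was at 615 to 999 CPM at 7 d and 597 to 683 CPM at 14 d, above all 3 uninjured mice, but no stress gene passed then. The median log2 change of all genes in Cluster 10 was 1.27 at 7 d and 1.33 at 14 d. The immune list summed there to 3022 to 9626 CPM at 7 d and 3176 to 5676 CPM at 14 d. Nothing particular to Calr is read from its later levels. Over the 10 clusters together, the list had 1 call in 179 tests at 1 d, against 0.0412% of the tests of all genes, and a median of 0.15, against -0.18 over all genes.

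Across 171 sums of a mouse and a cluster, after each cluster's mean was subtracted, Calr was also the gene most like Hspa5 (Pearson r = 0.71), followed by Pdia3 (0.67) and Ostc (0.63) among 4312 genes. The sums share mice and depth, so the values are a description with no test. Calr and Pdia3 belong to the list of stress genes, and Ostc encodes a subunit of the oligosaccharyltransferase complex.

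The stretch before the start of Hspa5 (chromosome 2, plus strand) holds the endoplasmic reticulum stress element in its full form, CCAAT, then 9 free bases, then CCACG. It is shown because Hspa5 is the member of this response among the 9 genes. With 5 bases on either side, and the element in capitals, the sequence at chr2:34772020-34772048 (GRCm38.p6, RefSeq), which begins its match 65 bases before the RefSeq start, reads as follows.
Hspa5: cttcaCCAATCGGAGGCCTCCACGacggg
On both strands this element occurred in 39 of 32851 promoters of the same length (0.119%). Of the 9 genes, 6 had promoter entries, and among these the element was found for Hspa5. The heat shock element was searched as 3 alternating units of GAA and TTC, starting with either, with 2 free bases between units, and it occurred in 198 promoters (0.603%). Among the 6 genes it was found in the entries of Hsph1, in the part after the start. A match describes letters in a window of 250 bases before to 50 after the start, and a lack of a match says only that these letters are not there.

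Hspa8 encodes the constitutive HSP70 protein of the cytosol. Pooled over times, which the clusters fill differently, its level ranged from 721 ± 356 CPM (n = 10) in immune cells and 613 ± 370 CPM (n = 14) in Cluster 10 to 155 ± 71.2 CPM (n = 15) in neurons and 133 ± 51.8 CPM (n = 15) in Cluster 7. From Cluster 2 (468 ± 165 CPM, n = 11) through the Cluster 5 astrocytes, Cluster 4 and Cluster 6 to endothelial cells (444 ± 120 CPM, n = 15), neighbours in the order did not differ beyond their spread. Schwann cells (216 ± 45.1 CPM, n = 5) were above neurons in 5 of 5 mice, and neurons above Cluster 7 in 10 of 15. Immune cells had 1053 CPM at 1 d and 430 CPM at 14 d, when Cluster 8 (586 CPM), Cluster 2 (544 CPM), Cluster 5 (531 CPM) and Cluster 10 (483 CPM) were higher. The rankings of the other genes pool times in the same way.

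In neurons Hspa8 was 127, 292, 263 and 236 CPM in uninjured mice and 129, 90.9, 101 and 64.4 CPM at 14 d. The 14 d values lay below 3 of the 4 uninjured mice and next to the lowest, WT replicate 1. The log2 difference was -1.33 ± 0.34 with an adjusted p of 0.0550 from edgeR, so it did not pass, and 3 of 4 mice at 14 d were below all uninjured mice. With the replicate block it was -1.29 with an adjusted p of 0.0470, which changed the count at 14 d from 0 to 1. Of 15 fits without a mouse 4 passed. The difference was -1.65 without WT uninjured replicate 1 and -0.87 without WT uninjured replicate 2, and the highest adjusted p was 0.441, without WT 14 d replicate 2. At 7 d the level was 134, 120, 113 and 118 CPM (log2 difference -1.12 ± 0.38, adjusted p = 0.365). All 4 mice at 14 d had animal numbers of 10000 or more, which 2 of the 4 uninjured mice had. With the number series as a term Hspa8 passed in neurons at 7 d (-1.31, adjusted p = 0.00626) and 14 d (-1.70, 6.71e-06). With that term Hsp90ab1 (-1.17, 0.00426) and Hspa5 (-1.09, 0.0196) passed there at 14 d as well, with 4 of 4 mice below all uninjured mice for Hsp90ab1 and 0 of 4 for Hspa5 (edgeR).

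In Cluster 7, Hspa8 was 75.0, 167, 157 and 214 CPM in uninjured mice and 159, 99.4, 112 and 32.1 CPM at 7 d, which overlap. The log2 difference was -1.20 ± 0.35 (adjusted p = 0.228, edgeR), without WT uninjured replicate 1 it was -1.53 (adjusted p = 0.0107), and with the animal number series it was -1.35 (0.0174). In Cluster 10, Hspa8 was 117, 476 and 255 CPM in uninjured mice and 1181, 1563 and 654 CPM at 1 d, with 3 of 3 mice higher. The log2 difference there was 1.89 ± 0.56 (adjusted p = 0.198, edgeR, and 0.0175 with DESeq2). It was 1.46 without WT uninjured replicate 1 and 2.65 without WT uninjured replicate 2, and 0 of 15 fits without a mouse passed, with adjusted p of 0.0967 to 0.354.

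The genes most like Hspa8 across the 171 sums were Actb (Pearson r = 0.72), Ubb (0.66) and Tuba1a (0.63), which encode cytoplasmic actin, polyubiquitin and a tubulin. Only genes with a mean of at least 50 CPM were compared with each member, which leaves out Hspa1a, Hspa1b and Dnajb1 as partners. For Hspa1a the highest values were weak, with Cyp51 at 0.33, Ddx21 at 0.30 and Gm42826 at 0.28.

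Hsp90aa1 and Hsp90ab1 encode the stress-inducible and the constitutive HSP90 proteins of the cytosol. Hsp90aa1 stood out in Cluster 13, at 2139 ± 1077 CPM (n = 10), and was higher there than in the Cluster 4 oligodendrocytes (762 ± 299 CPM, n = 15) in 10 of 10 mice. The Cluster 8 oligodendrocytes (681 ± 258 CPM, n = 14), Cluster 2 (512 ± 248 CPM, n = 11) and the Cluster 5 astrocytes (403 ± 198 CPM, n = 14) followed, each above the next in 8 of 11 mice or fewer. Below 400 CPM the remaining clusters formed a gradual series down to 98.8 ± 35.3 CPM (n = 15) in Cluster 7.

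In Cluster 13 the level of Hsp90aa1 was 1155 CPM in the only uninjured mouse with 10 cells, 2808, 1211 and 1980 CPM at 1 d, 3587, 2435 and 734 CPM at 7 d and 4043, 1710 and 1729 CPM at 14 d. No change over time was tested there.

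Hsp90ab1 was also highest in Cluster 13 (1825 ± 820 CPM, n = 10), but its lead was not beyond the spread, since Cluster 13 was above Cluster 10 (1266 ± 512 CPM, n = 14) in 6 of 10 mice. Most clusters lay between 763 and 1206 CPM without clear steps. Neurons (391 ± 105 CPM, n = 15), myeloid cells (322 ± 179 CPM, n = 5) and Cluster 7 (271 ± 89.5 CPM, n = 15) were lowest, and the Cluster 5 astrocytes (763 ± 316 CPM, n = 14) were above neurons in 11 of 14 mice.

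At 1 d both genes were higher in the Cluster 6 microglia without passing the test. Hsp90aa1 was 112, 123 and 111 CPM in uninjured mice and 525, 382 and 397 CPM at 1 d, a log2 difference of 1.88 ± 0.47 (adjusted p = 0.168, edgeR) with 3 of 3 mice higher. Hsp90ab1 was 599, 709 and 363 CPM and then 2122, 1191 and 1598 CPM, a difference of 1.71 ± 0.44 (adjusted p = 0.168, edgeR, and 0.0291 with DESeq2). In Cluster 10, Hsp90ab1 was 1167, 585 and 722 CPM and then 2404, 1876 and 1979 CPM (1.40 ± 0.48, adjusted p = 0.294, edgeR, and 0.0313 with DESeq2). In both clusters the mice at 1 d lay above all uninjured mice, and both later times overlapped with the uninjured mice for these genes. In Cluster 6 cells without a UMI of the neutrophil or myeloid list, chosen after seeing the data, Hsp90aa1 and Hsp90ab1 passed in edgeR and Hspa5 did not (1.35, adjusted p = 0.0919). That set held 9 mice, fewer than the 12 required, so nothing is read from it.

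Hsp90aa1 and Hsp90ab1 varied alike across the 171 sums (Pearson r = 0.76). The genes outside the 9 that were most like Hsp90aa1 were Gapdh (0.68), Psma7 (0.67) and Hint1 (0.63), which encode a glycolytic enzyme, a proteasome subunit and a nucleotide hydrolase. Hspa8 also varied with Hsp90aa1 (0.61) and Hsp90ab1 (0.58), while Hspa5 and Hsph1 had a value of -0.07.

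Hspb1 encodes a small heat shock protein that also binds actin filaments. Its mean over all times was highest in the vascular clusters and fibroblasts, with 695 ± 253 CPM in endothelial cells (n = 15), 574 ± 272 CPM in pericytes (n = 15) and 534 ± 503 CPM in fibroblasts (n = 9). Endothelial cells were above pericytes in 14 of 15 mice, and pericytes above fibroblasts in 6 of 9. Fibroblasts had 84.8 CPM in the only uninjured mouse and 1466 CPM in WT 14 d replicate 1. That uninjured mouse held 10 fibroblasts with 23586 UMIs, where 3 UMIs make 127 CPM. At 1 d WT replicate 1 held 12 fibroblasts (5446 UMIs) and cKO replicate 1 held 11 (7330 UMIs). At 1 d alone the means were 926 CPM in Cluster 5, 905 CPM in endothelial cells, 828 CPM in fibroblasts and 735 CPM in pericytes. Over all times the Cluster 5 astrocytes (249 ± 388 CPM, n = 14), Cluster 13 (203 ± 197 CPM, n = 10), Cluster 2 (122 ± 261 CPM, n = 11), red blood cells (86.9 ± 106 CPM, n = 4) and Cluster 7 (54.1 ± 98.2 CPM, n = 15) had spreads close to or above their means. A single mouse at 7 d had 875 CPM in Cluster 2, where the mice of the other times had at most 256 CPM. That mouse, WT 7 d replicate 1, held 14 cells and 4570 UMIs there, so that 3 UMIs make 656 CPM.

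In the remaining 9 clusters the mean of Hspb1 was 10.4 to 30.1 CPM, with some mice of each cluster without a UMI. The lowest was the Cluster 6 microglia at 10.4 ± 16.1 CPM (n = 14), and neighbours among these 9 clusters did not differ beyond their spread.

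Hspb1 rose at 1 d in the Cluster 7 astrocytes. The 4 uninjured mice had 6.82 (2 UMIs), 0, 0 and 10.7 CPM (2 UMIs). At 1 d it was 226 CPM in the WT mouse (7 UMIs in 6 cells), 252 CPM in cKO replicate 1 (7 UMIs in 2 cells) and 251 CPM in cKO replicate 2 (73 UMIs in 22 cells). All 3 mice at 1 d were above all 12 other mice, in both replicates. At 7 d the level was 0, 3.43, 0 and 7.03 CPM and at 14 d 4.47, 17.1, 5.68 and 26.6 CPM.

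The log2 change at 1 d was 4.98 ± 0.75 (SE), with an adjusted p of 6.91e-05 from edgeR, higher in 3 of 3 mice. It rests on 4 UMIs in the uninjured mice. In Cluster 7 at 1 d 0.188% of 7966 genes passed, and the median log2 change of all genes was -0.30. The call was kept in all 25 alternatives run, from 4.72 to 7.04 on the log2 scale, of which the one without the shallow mice had 1 mouse at 1 d. The one with at least 30 cells dropped only cKO uninjured replicate 1 (20 cells), so it repeated the fit without that mouse. The highest came without cKO uninjured replicate 2 (7.04, adjusted p = 0.000107) and without WT uninjured replicate 1 (6.74, 1.50e-05), the mice that hold those 4 UMIs.

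The Cluster 5 astrocytes showed a difference of like size that did not pass. Hspb1 was 0, 16.6 and 12.5 CPM in uninjured mice (10 UMIs in all) and 1215 CPM (WT, 33 UMIs), 856 CPM (cKO replicate 1, 12 UMIs) and 707 CPM (cKO replicate 2, 340 UMIs) at 1 d. At 7 d it was 93.8, 19.1, 284 and 32.9 CPM and at 14 d 161, 40.3, 22.4 and 21.9 CPM. The 3 mice at 1 d were above all 11 other mice with enough cells. The log2 difference was 5.15 ± 1.07 with an adjusted p of 0.0948 from edgeR. It passed with the replicate block (4.80, adjusted p = 7.22e-05), with the animal number series, without TMM, without a filter, with DESeq2 (0.000637) and without the shallow mice (0.00203), and when conditions were read from cell names its adjusted p was 0.9998. It also did not pass without mitochondrial genes (0.121). The setting of at least 30 cells removed no mouse of Cluster 5, so it repeated the main fit (0.0948). The fit without the shallow mice left cKO replicate 2 as the only mouse at 1 d, with its spread taken from the other groups. Leaving out each mouse gave 4.77 to 7.48, both without an uninjured WT mouse, and 3 of 15 such fits passed. The highest adjusted p was 0.497, without cKO uninjured replicate 2.

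In endothelial cells Hspb1 was 710, 729, 553 and 598 CPM in uninjured mice and 1143, 615 and 956 CPM at 1 d, which overlap (0.36 ± 0.42, adjusted p = 0.961, edgeR). In pericytes it was 523, 489, 483 and 589 CPM and then 1164, 426 and 615 CPM (0.46 ± 0.44, adjusted p = 0.977, edgeR). The change at 1 d exceeded that of endothelial cells by 4.59 ± 0.82 in Cluster 7 (adjusted p = 0.000210) and by 4.88 ± 1.06 in Cluster 5 (adjusted p = 0.0165), from the edgeR comparison with mice as blocks that was chosen after seeing the data.

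Endothelial cells had the highest mean of Hspb1 over all times, so their markers in the astrocyte clusters are given beside this. In Cluster 7 the 7 endothelial genes summed to 27.3, 21.7, 52.2 and 315 CPM in uninjured mice and 226, 108 and 278 CPM at 1 d, with Flt1 the most abundant in both cKO mice at 1 d and Ly6c1 in the WT mouse. In Cluster 5 they summed to 0, 60.9 and 184 CPM and then 0, 71.4 and 266 CPM. In cells without a UMI of the 7 genes, Hspb1 in Cluster 7 was 3.74, 0, 0 and 14.6 CPM in uninjured mice and 235, 261 and 320 CPM at 1 d (log2 change 5.30, adjusted p = 8.87e-06, edgeR). In such cells of Cluster 5 it was 0, 15.1 and 7.31 CPM and then 1215, 881 and 734 CPM (5.57, adjusted p = 0.0964, edgeR), which did not pass.

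Markers of pericytes and fibroblasts, the other cells with high Hspb1, were read in the same way. The 7 pericyte genes summed to 58.0, 36.2, 52.2 and 224 CPM in Cluster 7 of uninjured mice and 32.2, 72.1 and 61.9 CPM at 1 d, and in Cluster 5 to 46.3, 33.2 and 53.0 CPM and then 73.6, 0 and 102 CPM. In pericytes themselves the sums at 1 d were 13016, 13689 and 11554 CPM. The 6 fibroblast genes summed to 177, 50.7, 287 and 128 CPM in Cluster 7 and then 64.4, 252 and 134 CPM, with Col1a2 the most abundant except in the WT mouse at 1 d. In Cluster 5 they summed to 200, 77.6 and 56.2 CPM and then 36.8, 143 and 66.5 CPM.

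Beside Hspb1, 14 genes passed in Cluster 7 at 1 d in edgeR, and they are named here after their values were seen. Gfap, of the astrocyte list (2.05 ± 0.35, adjusted p = 0.000941), Serpina3n (4.47 ± 0.87, 0.00465), Cd44 (2.91 ± 0.62, 0.0173), Osmr (5.09 ± 1.13, 0.0237), Timp1 (7.21 ± 1.65, 0.0282), Cdh13, Adam12, Camkk2 and Anxa2 rose with 3 of 3 mice above all uninjured mice. The vascular gene Igfbp7 (4.90 ± 1.10, 0.0237), mt-Nd3, Gfra1 and Flnc rose with 2 of 3, and Paqr7 fell with 2 of 3 below all uninjured mice. Igfbp7 was 0, 0, 0 and 26.7 CPM in uninjured mice and 193, 0 and 61.9 CPM at 1 d. Timp1, Anxa2 and Flnc were at 0 in all 4 uninjured mice, Osmr in 3 of 4 and Serpina3n in 2 of 4.

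In other clusters Hspb1 was higher at 1 d without passing. In oligodendrocyte precursors it was 0 CPM in 3 uninjured mice and then 110 (2 UMIs), 24.9 (1 UMI) and 112 CPM (unadjusted p = 0.00944, adjusted p = 0.842, log2 difference 6.39, edgeR). The endothelial list summed there to 22.9, 248 and 0 CPM and then 331, 698 and 176 CPM. In Cluster 8 it was 0 CPM in 3 uninjured mice and then 44.7, 18.5 and 186 CPM (adjusted p = 0.629, 6.84), with endothelial sums of 25.9, 128 and 43.2 CPM and then 0, 111 and 307 CPM. A fitted difference from groups at 0 is no bound. In Cluster 4 it was 10.1, 37.3, 24.9 and 0 CPM and then 78.8, 28.2 and 138 CPM (2.33, adjusted p = 0.821), where 2 of 3 mice were above all uninjured mice, with endothelial sums of 304, 756, 436 and 509 CPM and then 63.1, 98.6 and 440 CPM. In Cluster 13 it was 0 CPM in the uninjured mouse and 421, 632 and 271 CPM at 1 d, and this was not tested.

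**Figure D3:**
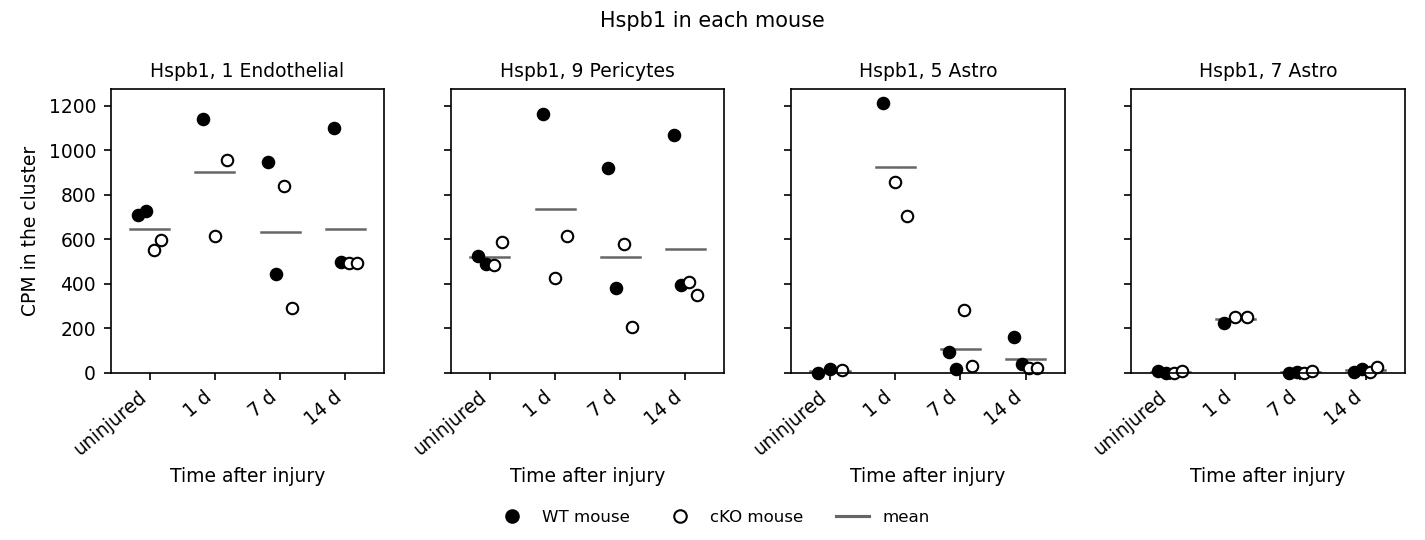
Level of Hspb1 in CPM (vertical axis) in endothelial cells, pericytes, the Cluster 5 astrocytes and the Cluster 7 astrocytes, in each mouse by time after injury (horizontal axis); filled points are WT mice, open points cKO mice and lines the means. At 1 d the mice lie between 226 and 252 CPM in Cluster 7 and between 707 and 1215 CPM in Cluster 5, above all mice of the other times.

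Hsph1, which encodes the HSP110 partner of HSP70, was highest in Cluster 13 (269 ± 115 CPM, n = 10), above Cluster 2 (150 ± 78.8 CPM, n = 11) in 7 of 7 mice that had both. The Cluster 5 astrocytes (103 ± 79.8 CPM, n = 14), oligodendrocyte precursors (90.6 ± 33.1 CPM, n = 14), neurons (66.3 ± 33.5 CPM, n = 15), Cluster 8 (64.4 ± 26.2 CPM, n = 14) and Cluster 4 (61.7 ± 37.9 CPM, n = 15) followed without steps beyond their spread. The other clusters had means of 48.2 CPM or less, down to 3.13 CPM in myeloid cells. Of its 10 tests at 1 d none passed in edgeR, and the log2 differences ranged from -4.20 ± 2.97 in neurons to 0.88 ± 0.79 in oligodendrocyte precursors.

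Dnajb1, an HSP40 gene, was highest in endothelial cells (63.3 ± 25.1 CPM, n = 15), above fibroblasts (40.7 ± 38.9 CPM, n = 9) in 8 of 9 mice. The next 6 clusters, from red blood cells (31.4 CPM) to Cluster 8 (29.1 CPM), did not differ beyond their spread, and the lowest were the Cluster 5 astrocytes (8.96 CPM) and Cluster 7 (6.58 CPM). In endothelial cells it was 96.2, 56.1, 92.2 and 30.5 CPM in uninjured mice and 131, 59.5 and 46.4 CPM at 1 d, which overlap (0.22 ± 0.30, adjusted p = 0.966, edgeR). Its 6 tests at 1 d gave no call in edgeR.

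In neurons the contrast at 1 d was thin. WT 1 d replicate 1 held 18 neurons with 7570 UMIs, and the median log2 difference of all genes there was -2.98, and the median of the 7 heat shock genes tested was -2.62.

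Lists of related genes were read beside the members, and these values call nothing particular to the list. At 1 d edgeR called 0 of 279 tests of 34 other cytosolic chaperones and co-chaperones and 0 of 68 tests of 8 mitochondrial chaperones. It also called 0 of 20 tests of 4 genes of heat shock factors and 0 of 112 tests of 17 immediate early genes. Of the tests of all genes at 1 d, 0.0412% passed. In this order the medians of the lists were -0.04, 0.29, -0.12 and 0.15, against -0.18 over all genes. In Cluster 10 at 1 d the medians were 0.79 for cytosolic chaperones, 1.51 for mitochondrial chaperones, 1.27 for the 6 heat shock genes tested and -0.48 for the 17 immediate early genes, against 0.40 over all genes. In Cluster 7 they were -0.50, -0.33, 0.35 (6 genes tested) and 1.41 (6 of the 17 genes tested), against -0.30. At 7 d, at 14 d and between genotypes these lists, the stress genes and 4 nuclear RNAs had no call in edgeR. Of the tests of all genes 0.0691%, 0.191% and 0.00133% passed in these comparisons.

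Between genotypes after injury, the medians were -0.06 over the 72 tests of heat shock genes and 0.18 over all genes. The smallest adjusted p was 0.769. The 5 tests at an unadjusted p under 0.05 were Hspa1b (0.87) and Dnajb1 (-0.49) in endothelial cells, Hspb1 in pericytes (-0.92), Hspa5 in Cluster 6 (-0.58) and Hspa8 in Cluster 7 (-0.77), as log2 differences of cKO minus WT. For the genes that rose at 1 d, only 1 WT mouse was measured then. Its level was below both cKO mice for Hspb1 in Cluster 7 and above both for Hspa5 in Cluster 10, and close to the nearer cKO mouse in each.

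The replicate number equals the deposited batch in all 16 mice, and the batches were compared as a description of the libraries. Between replicate 2 and replicate 1, edgeR called 0 of 72 tests of heat shock genes, against 0.744% of the tests of all genes, with 13 at an unadjusted p under 0.05 (18.1%, against 8.29% of all genes) and 3 calls by DESeq2, which called 1046 tests of all genes. Those 3 were Hsp90aa1 (1.58, adjusted p = 0.0189), Hsp90ab1 (1.56, 0.0144) and Hsph1 (2.03, 0.0166) in the Cluster 5 astrocytes, all higher in replicate 2. In edgeR the smallest adjusted p of the 3 was that of Hsph1 (1.57 ± 0.54, adjusted p = 0.0754). Hspa4l, another HSP110 gene, passed there (2.02 ± 0.54, adjusted p = 0.0179, edgeR), where 262 of 7929 genes (3.30%) passed. The nuclear RNA Meg3 passed in Cluster 8 (2.45 ± 0.53, adjusted p = 0.0234, edgeR), where 62 of 5369 genes (1.15%) did.

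Averaged over the 5 clusters that every mouse had (endothelial, neuronal, Cluster 4, Cluster 7 and pericytes), each weighted equally, the level of a mouse was expressed as log2(CPM + 50). Hspb1 varied most between mice by this measure, from 6.80 in cKO 7 d replicate 2 to 8.55 in cKO 1 d replicate 2, and its mean was 7.34 without injury and 8.16 at 1 d, then 7.21 (7 d) and 7.27 (14 d). Hspa8 had means of 8.27, 8.68, 8.19 and 8.10, and Hspa5 of 7.73, 8.11, 7.62 and 7.67.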

How the data were processed

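The authors sequenced 3′ single-cell libraries (10x 3′ v3.1) of 16 mice, aligned them with Cell Ranger to mm10 and kept cells with under 25% mitochondrial UMIs and over 200 genes. The deposited matrix holds a UMI count per gene and cell, and the deposited cell table gives mitochondrial content as a percent of UMIs; the authors' R was 4.1.2. The authors named the 17 clusters. Totals matched the cell table in 18203 of 18203 cells.

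The 9 heat shock genes were named by their symbols, and members and lists were chosen with earlier results of these data known. Other genes were named where a list gene was called, up to 6 per list and comparison, where they were the 3 genes most like Hspa1a, Hspa5, Hspa8 or Hsp90aa1 (sums with at least 20 cells and 20000 UMIs, genes of at least 50 CPM), or as the most abundant markers. The genes that passed at 1 d in Clusters 7 and 10 were named after their values were seen. UMIs were summed per mouse and cluster with at least 10 cells, and 1 mouse with 1 cell was left out. Clusters needed 12 mice, and 3 at each time. The sums were fitted with edgeR 4.0.16 quasi-likelihood (TMM, filterByExpr, a term per group) in R 4.3.3, with Benjamini-Hochberg adjustment within a cluster at 0.05. DESeq2 1.42.0 was the other tool, and both were tested on simulated data. Levels are CPM of all UMIs, with a pseudocount of 50 on the log scale. Python 3.11.15, numpy 2.4.6, pandas 2.3.3, scipy 1.17.1 and matplotlib 3.10.9 made the sums and plots.

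UMIs per mouse, replicates 1 and 2, were 3074681 and 2117284 (WT uninjured), 774242 and 1963422 (cKO uninjured), 536263 and 266 (WT 1 d), 666731 and 4601448 (cKO 1 d), 649625 and 3032957 (WT 7 d), 1236573 and 9008729 (cKO 7 d), 3074365 and 8786767 (WT 14 d), and 6559483 and 7264837 (cKO 14 d).

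Replicate number equalled the batch in 16 mice. As a check of pairing, the log2 difference between replicates 1 and 2 was correlated between groups over genes, with median Pearson r of 0.139 (endothelial), 0.0344 (neuronal), 0.234 (Cluster 4), 0.0793 (Cluster 7) and 0.0734 (pericytes), over 21 pairs of groups each; genes are not independent replicates. No replicate term was used, and it was run as an alternative. Other alternatives were no TMM, no filter, at least 30 cells, a term for animal numbers below 10000, conditions of the cell names, leaving out shallow mice (median under 1000 UMIs per cell), no mitochondrial genes, pseudocounts of 10 and 200, and each mouse left out. Added after seeing the data were cells without UMIs of 3 marker lists and the comparison with endothelial cells. Promoters were RefSeq entries on GRCm38.p6, and positions were from GENCODE on GRCm38.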

Additional observations from a re-analysis of the deposited data

Results flagged for a closer look

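Each of 3 sets of 4 mice was read for 9 genes, and in 4 of these 27 groups a mouse lay far from the other 3 in its mean log2(CPM + 50) over the clusters of every mouse. Chance gives about 1 in 20 for independent groups. These groups share mice and 3 of the 4 findings are of the same mouse, so the count is not set against that rate. WT 14 d replicate 1 was at 8.14 for Hspa5 (others 7.49 to 7.54), at 9.91 for Hsp90ab1 (9.08 to 9.19) and at 7.61 for Hspb1 (7.13 to 7.19). For Hsph1 at 7 d, cKO 7 d replicate 1 was at 6.18 (others 6.55 to 6.59). The causes were not tested.

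The change at 1 d differed between clusters in 3 of 81 tests against endothelial cells, chosen after seeing the data (edgeR, mice as blocks). Of the tests of all genes 0.0446% passed. The difference was 4.88 on the log2 scale for Hspb1 in Cluster 5 (adjusted p = 0.0165), 4.59 for Hspb1 in Cluster 7 (0.000210) and 2.20 for Hspa5 in Cluster 10 (0.0307), with 3 of 3 mice at 1 d above the uninjured mice in each cluster named.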

How the results depend on the processing

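At 1 d the 2 calls became 6 with DESeq2, 4 without a filter, 3 without TMM, 3 with the replicate block, 3 with the animal number series, 3 without the shallow mice (the third Hspb1 in Cluster 5, or Hspb1 in Cluster 5 and Hspa1b in pericytes in place of Hspa5 without the shallow mice), 1 with at least 30 cells and 1 when conditions were read from cell names; leaving out each mouse gave 1 to 3. At 7 d the 0 calls (6 tests at an unadjusted p under 0.05, 0 by DESeq2) became 2 with the animal number series, and 0 to 1 without each mouse. At 14 d the 0 calls (9 tests at an unadjusted p under 0.05, 0 by DESeq2) became 1 with the replicate block, 3 with the animal number series, 1 without mitochondrial genes, and 0 to 1 without each mouse. Between replicates the 0 calls in edgeR became 3 with DESeq2, 1 without a filter and 3 when conditions were read from cell names, and 0 to 3 without each mouse. Between genotypes leaving out each mouse gave 0 to 0 calls in edgeR, with 5 tests at an unadjusted p under 0.05 and 0 by DESeq2. The edgeR shares of all genes given above belong to the planned fits. The counts of the edgeR alternatives are therefore not set against a background. The causes were not tested.

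Without WT uninjured replicate 1, Hspa8 passed in Cluster 7 at 7 d (-1.53, adjusted p = 0.0107) and in neurons at 14 d (-1.65, 0.0271). In neurons it also passed without cKO uninjured replicate 1 (-1.49, 0.0494), cKO 1 d replicate 1 (-1.34, 0.0387) and cKO 1 d replicate 2 (-1.36, 0.0462). Without the shallow mice Hspa1b passed in pericytes at 1 d (4.89, adjusted p = 0.00277), where 1 cell held 49 UMIs and 1 mouse was left at 1 d.

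Hspb1 in Cluster 7 kept its direction and side of the threshold in 25 of 25 alternatives, where at least 30 cells repeated a fit without a mouse. Hspa5 in Cluster 10 did so in 19 and kept its direction alone in 6, 2 of them the marker-free cells with 2 uninjured mice, with adjusted p of 0.0117 to 0.0967 over the mice left out. Its alternative with at least 30 cells could not be fitted.

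The highest minus lowest mouse moved with a pseudocount of 10 to 1.59 for Hspa1a, 1.71 for Hspa1b, 2.67 for Hspb1, 2.10 for Hsph1 and 0.92 for Dnajb1. With 200 it moved to 0.36 for Hspa1a, 0.38 for Hspa1b, 0.63 for Hspa5, 0.92 for Hspa8, 0.66 for Hsp90aa1, 0.96 for Hspb1, 0.41 for Hsph1 and 0.12 for Dnajb1. The mean level of each gene in its highest cluster moved by less than the SD between mice in 45 of 45 alternatives. Other clusters were not compared in this way. In pericytes that SD exceeded the mean for Hspa1a (56.0 against 52.9 CPM) and Hspa1b (79.4 against 51.0 CPM). The count therefore says little about the order of clusters.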

Other observations

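Several limits apply. The comparison at 1 d rests on 3 mice, 1 of them WT, and 2 of the 3 were shallow. Uninjured Cluster 10 held 13, 28 and 16 cells in its 3 mice, so single UMIs move those levels. No doublet caller was run here and free RNA was not removed, so the source of UMIs within a cluster was not tested. No group was left undissociated, so dissociation was not tested. Every mouse carried the Cre transgene, so effects of Cre itself could not be read. Condition names of the cells conflict with the titles in 6 mice.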
